A study of Arabidopsis thaliana with 16 samples.

Results

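The loci of the mitochondrial genome were described across the passage from dry seed to seedling in Arabidopsis thaliana. They were taken as every row of the deposited count table whose identifier starts with ATMG, which gave 56 loci among the 40421 loci of the table. The reference annotation used here names ATMG identifiers only through copies of them in the nuclear genome. In this way 15 of the 56 loci received a name, and the other 41 are given by identifier alone.

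The mitochondrial genome of plants encodes some subunits of the respiratory chain and of the ATP synthase, proteins that attach haem to cytochrome c, ribosomal proteins, ribosomal RNAs and transfer RNAs. Most other mitochondrial proteins are encoded in the nucleus and imported, among them the RNA polymerases that transcribe the mitochondrial genome. A dry seed stores simple mitochondria that resume respiration on imbibition, and their membranes and complexes are built up as germination proceeds. In Arabidopsis a large piece of mitochondrial DNA also lies within chromosome 2, where its genes resemble mitochondrial genes almost base for base.

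Total RNA depleted of rRNA was sequenced in 16 libraries, with 2 for each of 8 groups, all on the Col-0 background. The wild-type groups were mature dry seeds (DS) and seeds kept in water in the cold and dark for 24 h or 72 h (S24 and S72, the stratification stages). Further material was moved after stratification to warmer liquid culture and given 6 h, 26 h or 57 h of continuous light (L6, L26 and L57). Light, temperature and medium thus changed together from S72 to L6 and cannot be told apart. The mutants hen2-4 and rrp4-2 were sampled at 57 h of light and are compared with L57. HEN2 is an RNA helicase and RRP4 a core subunit of the nuclear exosome, a complex that degrades RNA in the nucleus, and rrp4-2 carries a base substitution. Whole seeds or seedlings were used, so fewer cells of a type and less RNA per cell cannot be told apart. No label says whether replicates came from separate cultures, and p-values then measure only the spread between these libraries.

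Library totals ran from 75618077 to 112510105 counts in DS, L6, L26 and L57, and from 237727756 to 266418636 in S24, S72 and both mutants. Depth and group therefore cannot be told apart from DS to S24, from S72 to L6 and from L57 to either mutant. Chloroplast loci took 3.99% to 11.3% of the counts up to L26 and 41.2% to 49.7% in L57 and the mutants. Nuclear rRNA loci took 12.3% of DS replicate 1 and at most 1.33% of any other library. The seed storage protein gene CRA1 had 23470 and 26880 CPM (counts scaled to library size) in DS against 17.5 and 20.02 in L57, as the labels of seed and seedling would have it.

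Most counts in mitochondrial sequence lay outside the ATMG loci. In RefSeq's TAIR10.1 assembly, 172 nuclear loci, 170 of them on chromosome 2, had at least 90% of their length in stretches of 200 bases or more that were at least 95% identical to the mitochondrial genome. These nuclear loci held 4.82 to 9.13 times as many counts as the 56 ATMG loci, with the lowest ratio in S72 replicate 1 and the highest in L26 replicate 1. Counts at ATMG loci were 12.8% of both sets together in each DS library, 16.6% in each S24 library, 9.87% and 9.94% for L26, then 10.3% and 10.1% for L57. The mitochondrial sequence of TAIR10.1 is not the one the reads were mapped to, so identity is given for TAIR10.1 only.

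The reference annotation pairs 16 ATMG loci with 17 copies, all within chr2:3239693-3473692 of TAIR10.1. Of these copies 11 were identical to the TAIR10.1 mitochondrial genome over every base compared. The coding part of 1 of them is printed because it occurs exactly 1 time in that mitochondrial genome, yet nearly all counts of the pair were at the nuclear copy. Whether the mitochondrial sequence used for mapping holds it exactly was not checked. Capitals mark the start codon.
AT2G07671, copy of ATMG01080, chr2:3251856-3252113, minus strand: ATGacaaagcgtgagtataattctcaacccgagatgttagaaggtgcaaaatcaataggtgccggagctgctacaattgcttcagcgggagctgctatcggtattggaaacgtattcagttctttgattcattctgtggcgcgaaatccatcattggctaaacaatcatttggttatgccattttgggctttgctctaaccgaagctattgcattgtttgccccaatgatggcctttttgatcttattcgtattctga

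ATMG01080, whose copy is annotated as subunit 9 of the ATP synthase membrane sector, held 2603 counts over all libraries against 2985291 at AT2G07671, or 0.0871% of the pair. ATMG01275, whose copy is annotated as NADH dehydrogenase 1A, held 151051 against 176677 at AT2G07785, or 46.1%. The lowest share of a named locus was 0.0613% for ATMG01190 (ATP synthase subunit 1, copy AT2G07698), followed by 0.0767% for ATMG00220 (apocytochrome b, copy AT2G07727). ATMG00290, for ribosomal protein S4, held 39.3%, and ATMG00180, for a cytochrome c biogenesis protein, held 10.5%. The other 9 named loci held 0.140% to 2.38%. A count at a named ATMG locus is thus a varying and often very small part of the counts of locus and copy together. The authors' mapping left each multimapped read at 1 random place. Where locus and copy share sequence, a count thus does not show from which genome the RNA came. The values that follow describe the loci as they were counted.

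**Figure D1:**
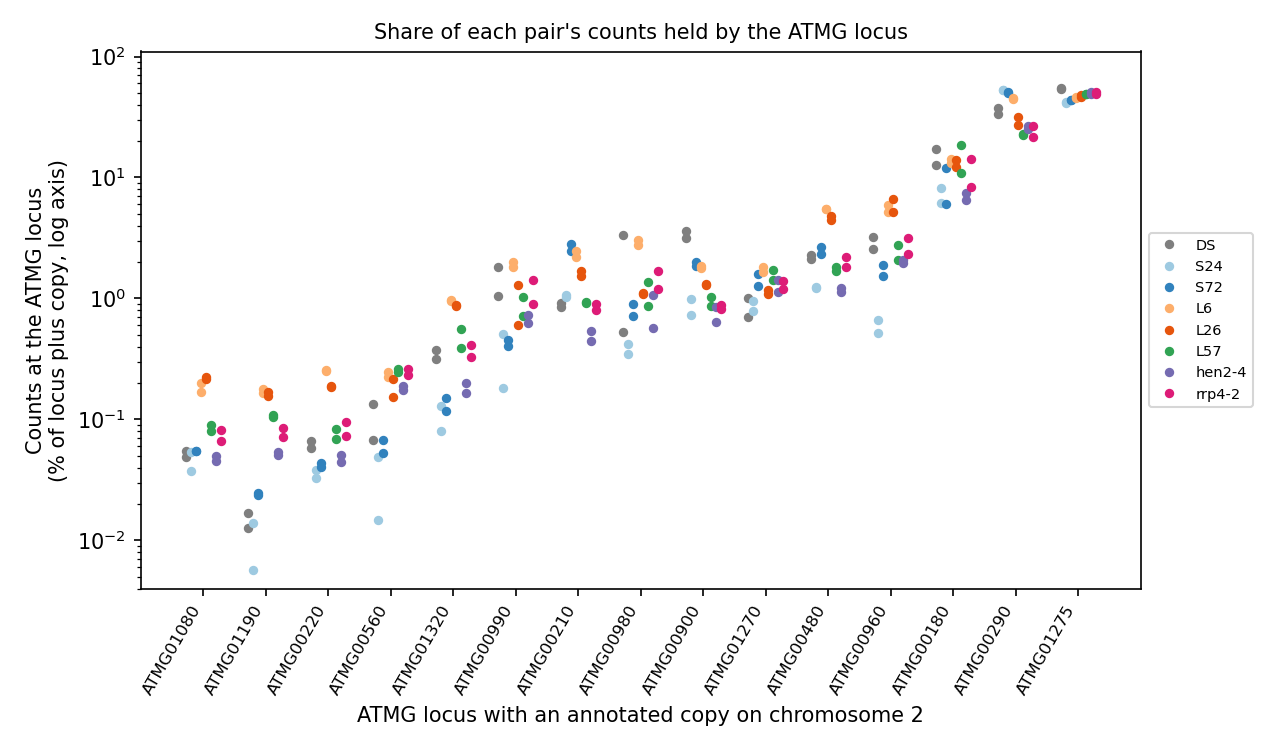
Counts of each named ATMG locus as a percentage of locus plus chromosome 2 copy, on a log axis, with 1 point per library coloured by group. ATMG01190 runs from 0.00572% to 0.180% and ATMG01275 from 41.7% to 55.4%, and the groups separate within many pairs.

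The 56 loci together took 0.0716% and 0.0850% of the library in DS, and 0.269% and 0.284% in S24. The share was 0.228% and 0.225% in S72, 0.205% and 0.209% in L6, 0.136% and 0.135% in L26, then 0.0671% and 0.0610% in L57. Libraries of neighbouring wild-type stages did not overlap. The mutants had 0.0778% and 0.0871% (hen2-4) and 0.0949% and 0.0968% (rrp4-2), all above both L57 libraries. The 95% Wilson interval of DS replicate 1, the shallowest library, was 0.0710% to 0.0722%, and such intervals cover counting error only. With 2 libraries a side, exact permutation allows no p under 0.33, and the shares were left untested.

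Without chloroplast and nuclear rRNA loci in the denominator the order of the groups changed. L57 then stood at 0.114% and 0.110%, above the 0.0875% and 0.0911% of DS, and rrp4-2 at 0.181% and 0.193%, above the 0.152% of each L26 library. S24 stayed highest at 0.282% and 0.299%. It did not when ATMG00020, ATMG01380 and ATMG01390, possible rRNA loci described below, were left out of the ATMG counts. Their shares of all counts left out, S24 stood at 0.0486% and 0.0508%, L6 at 0.0592% and 0.0610%, and L26 at 0.0547% and 0.0538%.

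**Figure D2:**
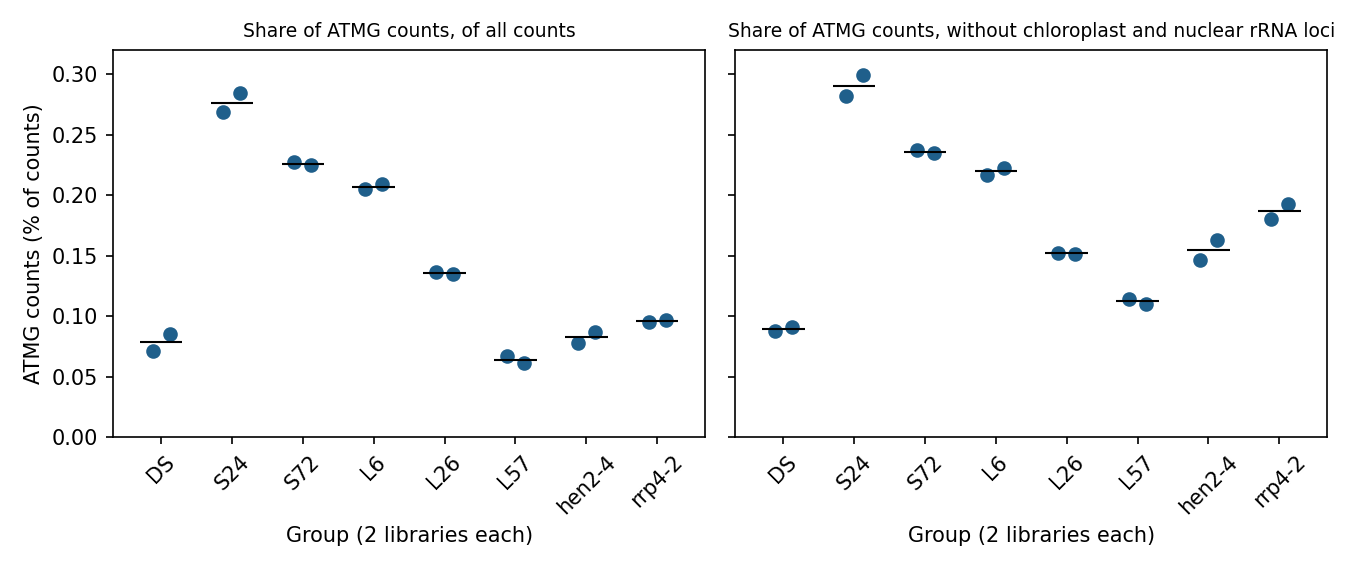
Counts of the 56 ATMG loci as a percentage of all counts (left) and of the counts without chloroplast and nuclear rRNA loci (right), with 1 point per library and a line at the mean of the 2 libraries. On the left the share goes from 0.269% and 0.284% in S24 down to 0.0671% and 0.0610% in L57, and in both panels the mutants lie above L57.

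ATMG00020 alone held 76.1% of all ATMG counts. ATMG00735 followed with 9.46%, ATMG00290 with 4.53%, ATMG01275 with 3.43%, ATMG00110 with 2.28% and ATMG00270 with 0.994%. The other 50 loci shared the rest, 23 loci had under 100 counts in every library, and 4 were at 0 in a library. No lengths of ATMG loci were at hand, so levels are not compared between loci beyond these shares of counts. The reference annotation names the rRNA genes of the mitochondrial genome but ties none of them to an ATMG identifier. ATMG00020, ATMG01380 and ATMG01390 were taken as the possible rRNA loci when the alternatives were planned, and for that reason the ATMG total was also computed without them. The libraries were depleted of rRNA, and the part of that depletion in the counts of these loci, and so in an ATMG share led by ATMG00020, was not tested.

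The make-up changed along the stages. ATMG00020 took 79.2% and 79.7% of the ATMG counts in DS, 81.8% and 82.04% in S24, 80.6% and 79.3% in S72, 69.97% and 69.6% in L6, 57.7% and 58.1% in L26, and 70.9% and 70.9% in L57. It was lowest in L26 and lay between 70.5% and 71.8% in the mutants. The 50 smaller loci took 3.45% and 2.94% in DS, 1.49% and 1.36% in S24, 1.85% and 2.08% in S72, 7.19% and 7.41% in L6, 10.05% and 9.95% in L26, then 4.79% and 4.64% in L57. Their share was highest where that of ATMG00020 was lowest. Shares of the same total are not independent, and a lower share of ATMG00020 leaves more for the other loci. ATMG00735 held 7.23% to 8.36% from DS to L6 and 10.98% to 13.4% from L26 on, mutants included.

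**Figure D3:**
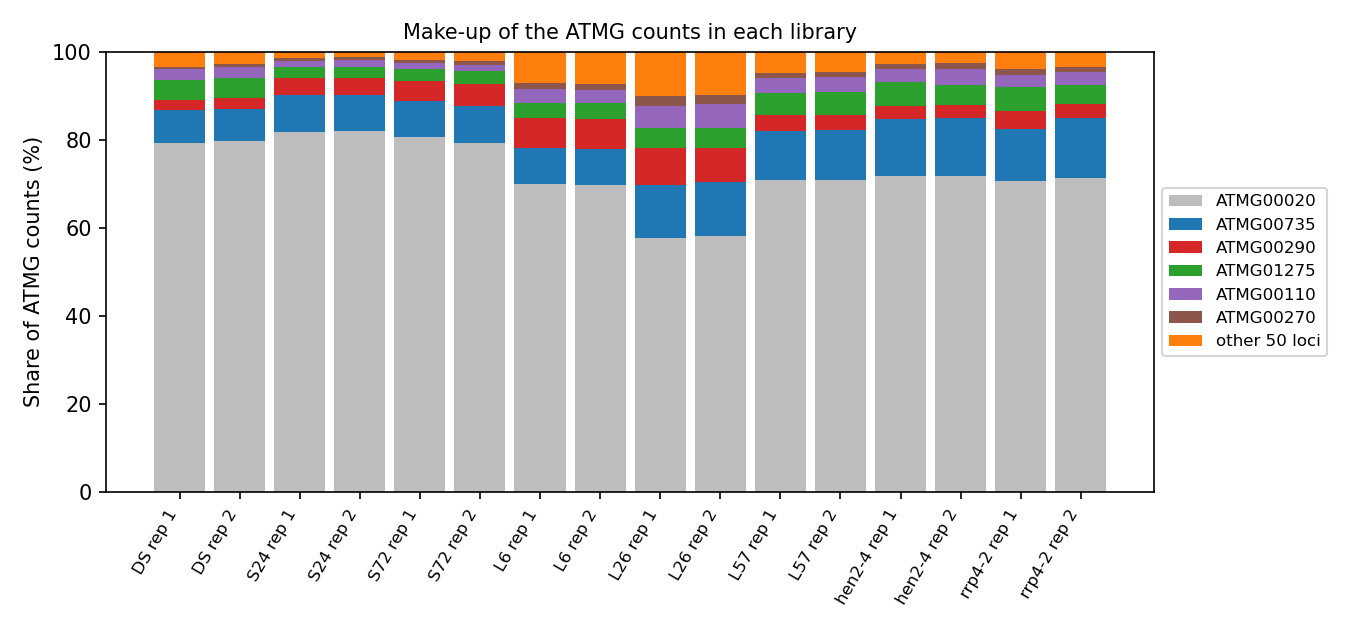
Share of the ATMG counts (%) held in each of the 16 libraries by the 6 largest loci and by the other 50 together. ATMG00020 narrows from 82.04% in S24 replicate 2 to 57.7% in L26 replicate 1, where the other 50 loci reach 10.05%.

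Changes were tested with edgeR's quasi-likelihood test over 28824 loci, of which 54 were ATMG loci. They are log2 fold changes with their SE, called at an adjusted p under 0.05 (Benjamini-Hochberg over all loci of a comparison). The first scaling was to the library, with trimmed-mean (TMM) factors, and levels per library are CPM on that scale (normalised CPM). The second was to the ATMG total, so that a change is one of the share within that total. On the library scale the median of all loci moved by 0.22 from DS to S24, by -0.17 from S24 to S72 and by -0.11 from L26 to L57. With DESeq2's size factors these medians were 0.08, -0.25 and 0.05, and medians of ATMG loci are set beside those of all loci. In alternative fits, apart from that with copies summed in, the calls of all loci were not counted. ATMG calls given for those fits stand without that share and show only how the ATMG calls moved.

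From DS to S24, the first day of imbibition, all 6 of the largest loci rose while most others did not pass the test. On the library scale 13 of 54 ATMG loci rose and 5 fell, or 33.3% called, where 28.9% of all loci rose and 24.8% fell, 53.6% in all. The median ATMG locus changed by 0.16 beside 0.22 for all loci. DESeq2's size factors gave 9 rises and 6 falls, with medians of 0.02 for ATMG loci and 0.08 for all loci. Scaling on nuclear loci without rRNA gave 15 and 2, with medians of 0.40 and 0.46.

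ATMG00020 had 845 and 917 normalised CPM in DS and 1998 and 2347 in S24 (1.30 ± 0.10, adjusted p = 9.52e-08). ATMG00290, for ribosomal protein S4, had 24.5 and 29.6 and then 97.5 and 114 (1.96 ± 0.11, adjusted p = 7.9e-09). Both S24 libraries lay above both DS libraries for each. ATMG00735 rose by 1.39 ± 0.10 and ATMG00270 by 1.45 ± 0.16. The smaller rises of ATMG00110 (0.48 ± 0.14) and ATMG01275 (0.36 ± 0.08) were lost without DS replicate 1 (adjusted p = 0.113 and 0.0553) or without S24 replicate 2 (adjusted p = 0.193 and 0.0627).

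ATMG01390 went the other way, from 5.16 and 4.76 to 2.18 and 2.31 normalised CPM (-1.14 ± 0.11, adjusted p = 1.4e-06). The DS libraries differed at ATMG00640, with 161 counts for replicate 1 against 37 for replicate 2, and the change was -2.64 ± 0.70. Relative to the ATMG total 1 locus rose (ATMG00290, by 0.71 ± 0.10) and 27 fell, where 8.46% of all loci rose and 53% fell, 61.4% in all. ATMG01390 changed by -2.39 ± 0.15 on that scale. With ATMG00020, ATMG01380 and ATMG01390 left out of the total, 4 rose and 25 fell.

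From S24 to S72, within stratification, a smaller share of ATMG loci passed the test than of loci at large. Low counts, under 100 in every library for 23 ATMG loci, may limit such calls, and their part was not tested. The median ATMG locus changed by 0.15 on the library scale beside -0.17 for all loci. On the library scale 9 ATMG loci rose and 3 fell, ATMG00020 among the latter, or 22.2% of 54, where 7528 of 28824 loci rose and 27.7% fell, 53.8% called in all. DESeq2's size factors gave 9 and 5, and scaling on nuclear loci gave 7 and 7. Without S72 replicate 2 only 7 were called.

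ATMG00210, for ribosomal protein L5, had 1.80 and 2.09 normalised CPM in S24 and 4.01 and 4.72 in S72 (1.17 ± 0.15, adjusted p = 1.84e-05). ATMG00480, for ATP synthase subunit 8, rose by 0.80 ± 0.12. ATMG00020 was called lower at -0.29 ± 0.10, adjusted p = 0.021. That call was lost without S24 replicate 2, S72 replicate 1 or S72 replicate 2 (adjusted p = 0.351, 0.0726 and 0.116), and without S24 replicate 2 the change was -0.11. Relative to the ATMG total 13 loci rose and 0 fell, where 32.2% of all loci rose and 18% fell, 50.2% in all. The median ATMG locus changed by 0.38 on that scale beside 0.04 for all loci.

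From S72 to L6, the first hours of light and warmth after stratification, most small loci rose and 3 of the 6 largest fell. On the library scale 34 of 54 ATMG loci rose and 3 fell, or 68.5% called, where 33.8% of all loci rose and 31% fell, 64.8% in all. The median ATMG locus changed by 1.57 and the median of all loci by 0. Of the 48 tested loci below the 6 largest, 33 rose and 0 fell. The share of loci called was thus close to that of all loci, while the calls of the small loci lay in 1 direction.

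ATMG01390 had 3.02 and 3.29 normalised CPM in S72 and 15.05 and 15.96 in L6 (2.30 ± 0.11, adjusted p = 4.34e-10). ATMG00830 had 2.71 and 3.02 and then 11.99 and 13.2 (2.14 ± 0.14, adjusted p = 1.09e-08). Neither overlapped between the groups. ATMG00110 rose by 0.59 ± 0.14. The 3 that fell were ATMG00020 (-0.78 ± 0.10), ATMG00735 (-0.58 ± 0.09) and ATMG01275 (-0.28 ± 0.08). The call of ATMG01275 was lost without S72 replicate 2, L6 replicate 1 or L6 replicate 2 (adjusted p = 0.0704, 0.0627 and 0.0507).

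With ATMG00020, ATMG01380 and ATMG01390 left out of the ATMG total, 34 loci rose and 3 fell relative to it. Within the full ATMG total 48 rose and 1 (ATMG00020) fell, where 44.5% of all loci rose and 18.6% fell, 63.1% in all. That fall of -0.20 ± 0.07 was lost when any of S72 replicate 1, S72 replicate 2, L6 replicate 1 and L6 replicate 2 was left out (adjusted p = 0.139, 0.0986, 0.109 and 0.121).

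**Figure D4:**
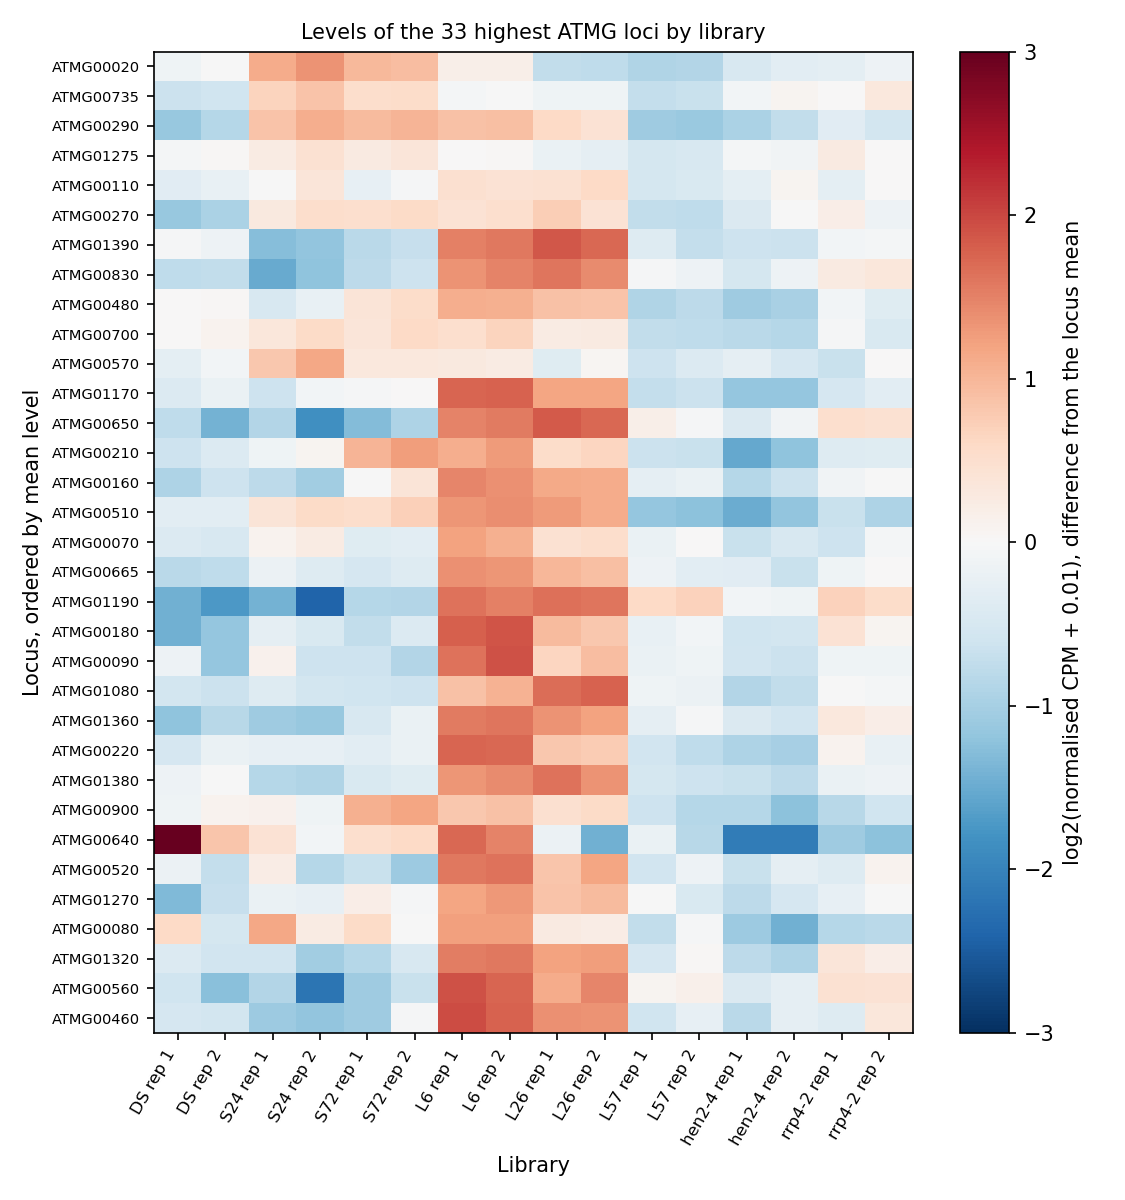
Levels of the 33 ATMG loci with the highest mean, as log2(normalised CPM + 0.01) minus the locus mean over 16 libraries, with rows ordered by mean level and the colour scale limited to -3 and 3. Most rows are highest in L6 or L26, ATMG00020, ATMG00735 and ATMG00570 are highest in S24, and ATMG00640 is highest in DS replicate 1.

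Among the 6 wild-type stages 37 of the 56 loci had their highest mean in L6 and 11 in L26. Another 4 were highest in S24, among them ATMG00020 and ATMG00735, while 0 were highest and 22 lowest in L57. Peak stages of all loci were not counted, so none of these peaks is shown to be particular to ATMG loci. The 50 smaller loci summed to 36.5 and 38.9 normalised CPM in S24, 41.4 and 45.8 in S72, 106 and 110.2 in L6, 96.3 and 93.02 in L26, then 33.3 and 32.9 in L57. ATMG00020 instead had 1998 and 2347 in S24, 1804 and 1749 in S72, 1034 and 1035 in L6 and 492 and 502 in L57. The small loci were at their highest while ATMG00020 was on its way down.

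From L6 to L26 falls outnumbered rises on the library scale. There 1 ATMG locus rose and 11 fell, or 22.2% called, where 30.2% of all loci rose and 28.1% fell, 58.3% in all. A fit of these 4 libraries alone called 24. ATMG00020 went from 1034 and 1035 to 553 and 543 normalised CPM (-0.92 ± 0.10, adjusted p = 2.38e-06). The rise was that of ATMG01080, for ATP synthase subunit 9, from 1.49 and 1.69 to 2.61 and 2.81 (0.77 ± 0.18, adjusted p = 0.00243). ATMG00290 changed by -0.39 ± 0.11, a call lost without L26 replicate 2 (adjusted p = 0.0842), and ATMG01275 by -0.27 ± 0.08, a call lost without L6 replicate 1, L6 replicate 2 or L26 replicate 2 (adjusted p = 0.0633, 0.077 and 0.106).

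On the scale of the ATMG total 13 rose and 1 (ATMG00020, -0.27 ± 0.07) fell from L6 to L26, where 47.8% of all loci rose and 9.55% fell, 57.3% in all. ATMG01390 rose most among the loci of at least 10 CPM (0.89 ± 0.13), followed by ATMG00270 (0.77 ± 0.14) and ATMG00110 (0.73 ± 0.10). With ATMG00020, ATMG01380 and ATMG01390 left out of the total, 3 rose and 7 fell. Without L6 replicate 1, L6 replicate 2 or L26 replicate 1 the calls relative to the total came to 8 each.

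From L26 to L57 every ATMG locus that edgeR called fell on the library scale. There were 36 falls and 0 rises, or 66.7% called, where 29.7% of all loci rose and 35.5% fell, 65.3% in all. DESeq2's size factors gave 27 falls and 0 rises, and the DESeq2 Wald test 28 falls and 1 rise, that of ATMG00020 (0.20, adjusted p = 0.0282). The median ATMG locus changed by -1.38 beside -0.11 for all loci.

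ATMG01390 went from 19.2 and 17.5 normalised CPM in L26 to 4.02 and 3.20 in L57 (-2.35 ± 0.11, adjusted p = 6.2e-10). ATMG00290 went from 81.02 and 72.3 to 25.7 and 24.7 (-1.61 ± 0.11, adjusted p = 2.46e-08). The L57 libraries of both lay below the L26 libraries. ATMG00830 fell by 1.60 ± 0.14 on the log2 scale, and ATMG00110 by 1.02 ± 0.14. ATMG00020 was at -0.14 and did not pass the test. ATMG01275 was called at -0.26 ± 0.08 but stood at 0.093 with DESeq2's size factors, and the call was lost without L26 replicate 1, L57 replicate 1 or L57 replicate 2 (adjusted p = 0.0956, 0.0933 and 0.0512).

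Scaled to the ATMG total 1 locus rose from L26 to L57 (ATMG00020, 0.29 ± 0.07) and 22 fell, where 37.8% of all loci rose and 22.6% fell, 60.4% in all. With ATMG00020, ATMG01380 and ATMG01390 left out of the total, 4 rose and 10 fell.

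Of the 6 largest ATMG loci 4 were higher in hen2-4 than in L57, and 5 in rrp4-2. The comparisons share the L57 libraries and are given side by side. In hen2-4, 4 loci were higher and 4 lower on the library scale, or 14.8% of 54, where 19.7% of all loci were higher and 10.6% lower, 30.2% in all. DESeq2's size factors gave 3 and 6, and scaling on nuclear loci 4 and 6. In rrp4-2, 8 were higher and 0 lower, or 14.8%, where 18% of all loci were higher and 8.54% lower, 26.6% in all.

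ATMG00020 had 492 and 502 normalised CPM in L57, against 656 and 736 for hen2-4 (0.49 ± 0.10, adjusted p = 0.002) and 751 and 828 for rrp4-2 (0.67 ± 0.10, adjusted p = 0.000301). ATMG00735 had 76.2 and 79.6 in L57, with 119 and 134 for hen2-4 (0.70 ± 0.10) and 126 and 156 for rrp4-2 (0.85 ± 0.10). All mutant libraries lay above both L57 libraries for these loci. ATMG01275 was higher by 0.40 ± 0.08 and 0.64 ± 0.08, and ATMG00270 by 0.54 ± 0.16 and 0.79 ± 0.16. The call of ATMG00270 in hen2-4 was lost without L57 replicate 1, L57 replicate 2 or hen2-4 replicate 2 (adjusted p = 0.0874, 0.0994 and 0.208). ATMG00290 was higher in rrp4-2 (0.66 ± 0.11) and was at 0.26 in hen2-4, where it did not pass the test. The mutants were not tested against each other.

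The 4 loci lower in hen2-4 were ATMG00160 (-0.52 ± 0.17), ATMG00210 (-0.70 ± 0.17), ATMG01080 (-0.67 ± 0.20) and ATMG01190 (-0.76 ± 0.25). For ATMG00160, ATMG01080 and ATMG01190 the call was lost when any of L57 replicate 1, L57 replicate 2, hen2-4 replicate 1 and hen2-4 replicate 2 was left out, with adjusted p from 0.065 to 0.223 for ATMG00160. For ATMG00210 it was lost without hen2-4 replicate 1 (adjusted p = 0.0713). With any of these libraries left out the calls in hen2-4 came to 4 or 5 in all.

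Relative to the ATMG total 1 locus was higher in hen2-4 (ATMG00735, 0.23 ± 0.07) and 19 were lower, where 6.53% of all loci were higher and 36.9% lower, 43.5% in all. The call of ATMG00735 was lost without any of L57 replicate 1, L57 replicate 2, hen2-4 replicate 1 and hen2-4 replicate 2 (adjusted p = 0.108, 0.0656, 0.0536 and 0.0702), and the calls then came to 11, 10, 14 and 9. In rrp4-2, 1 locus was higher (ATMG00735, 0.19 ± 0.07) and 3 lower, where 4.52% of all loci were higher and 49.1% lower, 53.7% in all. That call was lost without L57 replicate 1, L57 replicate 2 or rrp4-2 replicate 2 (adjusted p = 0.174, 0.102 and 0.384). Leaving out L57 replicate 1, L57 replicate 2 or rrp4-2 replicate 1 gave 1, 1 and 2 calls, and with ATMG00020, ATMG01380 and ATMG01390 left out of the total 0 were higher and 3 lower.

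Only loci named through a copy could be sorted by role, so each role may have further members among the other ATMG loci. Levels and changes by role are those of counts at the ATMG locus alone unless a sum is named. Directions often differed in the sums with copies given further below. Those named for NADH dehydrogenase, the complex that takes electrons from NADH into the respiratory chain, differed among themselves into L6. ATMG01275 (NADH dehydrogenase 1A) had 48.4 and 51.4 normalised CPM in DS, 59.5 and 68.7 in S24, 60.5 and 64.5 in S72, 51.04 and 51.8 in L6, 43.7 and 41.7 in L26, then 35.2 and 36.3 in L57, a narrow range. ATMG01320 (NADH dehydrogenase 2B) had 11 to 128 counts per library, and went from 0.158 and 0.209 in S72 to 0.866 and 0.897 in L6 (2.26 ± 0.35, adjusted p = 5.84e-05). Both L6 libraries lay above both S72 libraries. ATMG00990 (NADH dehydrogenase 3) had 5 to 46 counts per library and passed the test in 0 of the 7 comparisons on the library scale, with 1.39 into L6 (adjusted p = 0.0561).

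The locus for apocytochrome b, the haem-bearing core of complex III, was highest in L6. ATMG00220 stood at 0.552 and 0.687 normalised CPM in DS, 0.657 and 0.656 in S24, 0.632 and 0.684 in S72, 2.67 and 2.63 in L6, 1.39 and 1.34 in L26, then 0.526 and 0.455 in L57. Both L6 libraries lay above all others. The change into L6 was 2.01 ± 0.20, adjusted p = 1.07e-06, into L26 it was -0.96 ± 0.20, and into L57 it was -1.47 ± 0.22. Summed with its copy, the locus changed at these steps by -0.58, -0.52 and -0.18, the last not passing the test.

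The ATP synthase is the enzyme that makes ATP from the proton gradient. Counted alone, the 3 loci named for it all rose into L6 and fell into L57. Summed with their copies, they changed into L6 by -0.39 (ATMG01190), -0.16 (ATMG01080, which did not pass the test) and -0.53 (ATMG00480). Into L57 the sums changed by -0.40, -0.53 and -0.31 in that order. Of all loci 33.8% rose into L6 and 35.5% fell into L57. ATMG01190 (subunit 1) had 0.335 and 0.277 normalised CPM in DS, 0.344 and 0.167 in S24, 0.515 and 0.503 in S72, 2.90 and 2.69 in L6, 2.93 and 2.87 in L26, then 1.41 and 1.52 in L57. Its change into L6 was 2.46 ± 0.25, adjusted p = 1.03e-06. ATMG01080 (subunit 9) changed by 1.58 ± 0.19 into L6 and was highest in L26. ATMG00480 (subunit 8) had 4.86 and 5.45 in S72, 7.94 and 7.82 in L6 and 2.00 and 2.17 in L57, with 0.61 ± 0.12 into L6 and -1.71 ± 0.13 into L57.

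All 3 loci named for cytochrome c biogenesis, the attachment of haem to cytochrome c, fell into L57, a step at which 35.5% of all loci fell. ATMG00180 went from 0.583 and 0.727 normalised CPM in S72 to 3.42 and 3.62 in L6 (2.42 ± 0.20, adjusted p = 1.09e-07) and stood at 0.838 and 0.921 in L57. ATMG00900 had 0.474 and 0.4 in S24 and 0.928 and 0.994 in S72 (1.14 ± 0.27, adjusted p = 0.0029), and its change into L6 did not pass the test (-0.28 ± 0.26, adjusted p = 0.379). ATMG00960 had 6 to 62 counts per library, and its rise into L6 (1.30 ± 0.41) was lost without S72 replicate 1 or L6 replicate 2 (adjusted p = 0.0919 and 0.0732).

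The 4 loci named for ribosomal proteins did not move together. ATMG00290 (protein S4 of the small subunit) held a plateau of 97.5 and 114 normalised CPM in S24, 104 and 108 in S72 and 99.6 and 101 in L6. ATMG00210 (protein L5 of the large subunit) had 1.28 and 1.47 in DS, was highest in S72 and L6 at 4.01 to 4.80, and had 1.25 and 1.23 in L57. Its rise into S24 (0.49 ± 0.16) was lost without DS replicate 1 or S24 replicate 2 (adjusted p = 0.165 and 0.14). ATMG01270 (protein S7) changed by 1.18 ± 0.31 into L6 and -1.15 ± 0.33 into L57, the latter lost without L57 replicate 2 (adjusted p = 0.0798). ATMG00980 (protein of the S12 family) had 3 to 80 counts per library, and its rise of 1.72 ± 0.60 into L6 was lost without S72 replicate 1, S72 replicate 2, L6 replicate 1 or L6 replicate 2 (adjusted p = 0.102, 0.0558, 0.0906 and 0.0582). In all 2 of 4 rose into S24, 2 of 4 rose into L6 and 3 of 4 fell into L57, where 28.9%, 33.8% and 35.5% of all loci did so.

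Of the loci given by identifier, ATMG00110 had 26.8 and 29.2 normalised CPM in DS, 29.02 and 33.2 in S72, 47.5 and 45.9 in L6, 47.3 and 51.8 in L26 and 23.8 and 25.01 in L57. ATMG00270 had 6.05 and 6.90 in DS, 16.3 and 19.2 in S24, 22.1 and 17.99 in L26 and 8.00 and 7.83 in L57. ATMG00110 was highest in L6 and L26, whose libraries overlapped, and ATMG00270 was higher in S24 and L26 than in DS and L57. ATMG00520 changed by 2.53 ± 0.42 into L6, from 0.223 and 0.162 to 1.09 and 1.14. ATMG00160 changed by 1.12 ± 0.17 into S72 and by 1.22 ± 0.16 into L6.

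Counts at the copies on chromosome 2 showed another order of stages than counts at the ATMG loci they resemble. Of the 17 annotated copies 10 had their highest wild-type mean in S24, whereas 10 of the 16 ATMG loci paired with them were highest in L6 and 1 in S24. No such count was made over all loci. From DS to S24 all 17 copies rose, with a median of 1.11, where 28.9% of all loci rose. From S72 to L6 5 copies rose and 7 fell, with a median of -0.26, where 33.8% of all loci rose and 31% fell.

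AT2G07698, the copy of ATMG01190, had 2093 and 2129 normalised CPM in S72 and 1611 and 1614 in L6 (-0.39 ± 0.10, adjusted p = 0.00364), while ATMG01190 changed by 2.46 ± 0.25. AT2G07727, the copy of ATMG00220, had 1559.9 and 1562 and then 1039 and 1047 (-0.58 ± 0.09, adjusted p = 4.92e-05), while ATMG00220 changed by 2.01 ± 0.20. In these pairs the counts at the locus rose and the far larger counts at its copy fell. Which genome the reads of either came from is not known. Over this comparison both members were called in 9 of 16 tested pairs, and in opposite directions in 5 of them. Singly, 33.8% of all loci rose there and 31% fell, 64.8% in all. Pairs of unrelated loci were not counted, so these counts are not shown to differ from theirs. ATMG01275 and AT2G07785, which divide their counts almost evenly, both fell (-0.28 ± 0.08 and -0.41 ± 0.08). From L26 to L57 both members were called in 13 pairs and fell in all 13, where 35.5% of all loci fell and 29.7% rose. The difference between a locus and its copy was not itself tested.

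**Figure D5:**
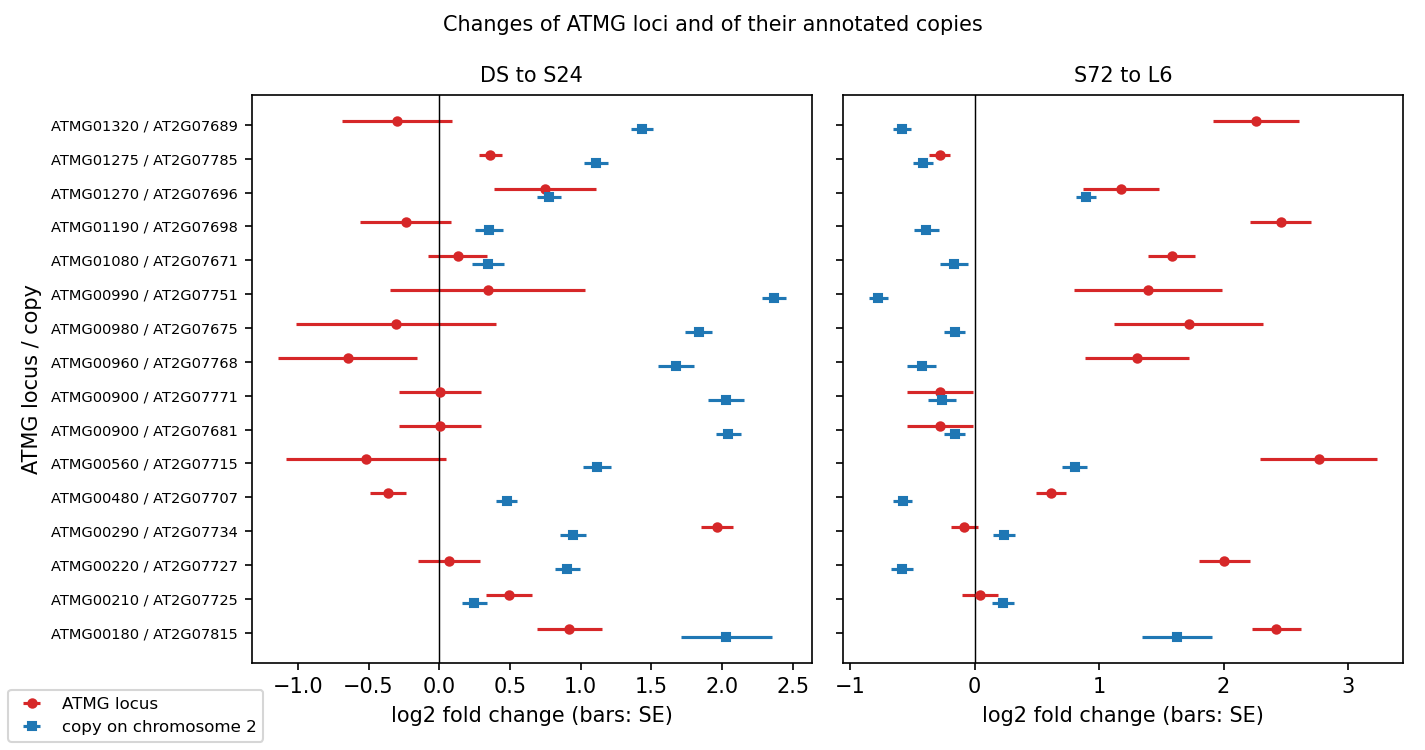
Log2 fold changes of the ATMG loci (red circles) and of their annotated copies on chromosome 2 (blue squares) from DS to S24 and from S72 to L6 for 16 tested pairs, with bars for the SE. From S72 to L6 the ATMG loci lie mostly right of 0 (median 1.35) and the copies mostly left of it (median -0.21).

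The division of counts between a locus and its copy moved with stage. ATMG01190 held 0.0168% and 0.0126% of its pair in DS, 0.0141% and 0.00572% in S24, 0.0246% and 0.0236% in S72, 0.18% and 0.166% in L6, 0.155% and 0.168% in L26, then 0.105% and 0.109% in L57. ATMG00290 held 33.4% and 37.3% in DS, 53.1% and 52.4% in S24, 45.3% and 44.5% in L6, then 22.8% and 22.6% in L57. The first was highest in L6 and L26, whose libraries overlapped, and the second in S24. If labels of 2 libraries a side were exchangeable, groups would part without overlap, in either direction, with a probability of 0.33. Loci without a copy have no such share, so no value over all loci stands beside the counts that follow, which were not tested. From S72 to L6 the ATMG share rose without overlap of the libraries in 12 of the 15 named pairs and fell in 3. From DS to S24 it fell in 10 and rose in 2, and in hen2-4 it was lower than in L57 in 11 and higher in 2. In rrp4-2 it was lower in 3, higher in 2 and overlapping in 10, which does not exceed that probability. Depth changed in each of these comparisons, and its part in the division was not tested. Between libraries of like depth, the share rose in 11 pairs and fell in 1 from S24 to S72, fell in 10 and rose in 1 from L6 to L26, and fell in 9 and rose in 3 from L26 to L57.

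Summing each of the 16 ATMG loci that have a copy with its copies gave other directions. From DS to S24 all 16 sums rose, where 28.9% of all loci in that fit rose, while 4 of these loci alone rose and 1 fell. From S24 to S72 0 sums rose and 8 fell, where 7527 of 28808 loci rose and 27.7% fell, while 5 of the loci alone rose and 0 fell. From S72 to L6 4 sums rose and 7 fell, where 33.8% and 31% of all loci did so, while 10 of the loci alone rose and 1 fell. The sums for ATMG00220, ATMG00480, ATMG00960, ATMG01190 and ATMG01320 fell there, with changes of -0.58, -0.53, -0.37, -0.39 and -0.57, where the ATMG loci alone had risen. Most of the counts in these sums were those of the copies.

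From L6 to L26 5 sums rose and 5 fell, where 30.2% and 28.1% of all loci did so. From L26 to L57 15 sums fell and 0 rose, beside 13 of the loci alone, where 35.5% of all loci fell. In hen2-4 7 sums were higher and 0 lower, where 19.6% of all loci were higher, while 1 of the loci alone was higher and 3 were lower. In rrp4-2 15 sums were higher and 0 lower, where 18.1% of all loci were higher. Calls over the 55 ATMG loci tested in that fit, summed or not, follow with those of all loci. From DS to S24 25 rose and 4 fell, beside 28.9% and 24.8%. From S24 to S72 4 rose and 11 fell, beside 7527 of 28808 and 27.7%. From S72 to L6 28 rose and 9 fell, beside 33.8% and 31%. From L6 to L26 5 rose and 11 fell, beside 30.2% and 28.1%. From L26 to L57 0 rose and 38 fell, beside 29.8% and 35.5%. In hen2-4 10 were higher and 1 lower, beside 19.6% and 10.6%. In rrp4-2 20 were higher and 0 lower, beside 18.1% and 8.55%.

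Of the partners encoded in the nucleus, 36 subunits of the respiratory chain and ATP synthase were followed. From S24 to S72 29 of 36 rose and 1 fell, where 7528 of 28824 loci rose and 27.7% fell. From L6 to L26 30 rose and 1 fell, where 30.2% of all loci rose and 28.1% fell. At these steps 9 and 1 of 54 ATMG loci rose. From L26 to L57 34 of 36 fell and 0 rose, where 35.5% of all loci fell. The largest rise into S72 was that of AT1G22840 (CYTC-1, a cytochrome c, 1.09 ± 0.07), and the largest rise into L26 that of AT3G52300 (ATPQ, a subunit of the ATP synthase, 1.22 ± 0.06). AT3G02090 (MPPBETA, which in plants is both a core subunit of complex III and a processing peptidase) had 201 and 209 normalised CPM in DS, 379.5 and 377 in S72 and 197 and 192 in L57.

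In other steps the nuclear subunits were divided. From DS to S24 9 rose and 11 fell, where 28.9% of all loci rose and 24.8% fell, with AT3G27380 (SDH2-1, a succinate dehydrogenase subunit) at 0.92 ± 0.08 and AT1G19580 (GAMMA CA1, of complex I) at -0.66 ± 0.08. From S72 to L6 19 rose and 13 fell, where 33.8% and 31% of all loci did so, with AT3G16480 (MPPalpha) at 1.85 ± 0.06 and AT4G10040 (CYTC-2, a cytochrome c) at -1.89 ± 0.09. In hen2-4 11 were lower and 0 higher, where 10.6% of all loci were lower and 19.7% higher. In rrp4-2 6 were lower and 2 higher, where 8.54% were lower and 18% higher. AT4G10040 stood at -0.94 ± 0.10 in hen2-4 and -0.51 ± 0.09 in rrp4-2. The ATP synthase genes AT5G08670, AT5G08680 and AT5G08690 are near-identical, and their counts may be mixed.

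Of 4 nuclear genes for mitochondrial transcription, DNA upkeep and alternative respiration, AT1G68990, a phage-type RNA polymerase, had 18.3 and 18.5 normalised CPM in DS and 45.8 and 38.7 in S24 (1.20 ± 0.11, adjusted p = 4.74e-07), and changed by -1.96 ± 0.11 into L57. AT5G15700, annotated as of the DNA/RNA polymerase superfamily, changed by -1.50 ± 0.11 into L26 and -2.31 ± 0.13 into L57. AT4G11060 (MTSSB, a mitochondrial single-stranded DNA-binding protein) changed by -2.45 ± 0.17 into L57. All 3 fell over this step, at which 35.5% of all loci fell. AOX1A (AT3G22370), the alternative oxidase that bypasses complexes III and IV, had 16.8 and 18.9 in S72, 1.62 and 1.48 in L26 and 14.6 and 16.5 in L57 (3.33 ± 0.15, adjusted p = 3.39e-10 from L26). It was higher again in hen2-4 (1.70 ± 0.13) and rrp4-2 (0.71 ± 0.12).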

How the data were processed

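The authors trimmed the reads with HOMER 4.11.1, mapped them to TAIR10 with STAR 2.7.9a, leaving each multimapped read at 1 random place, and deposited estimated counts per transcript from StringTie 2.1.4 against Araport11 and de novo transcripts. How strand was set is not clear from the sources used here, so antisense reads cannot be separated. The deposited TPM table held 0 ATMG rows in its 46640 rows and was not used. The planned levels per length were therefore not computed.

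Here counts, all whole, were summed per locus and fitted in R 4.3.3 with edgeR 4.0.16 (filterByExpr, TMM, 1 quasi-likelihood fit of 16 libraries with 8 group coefficients, 7 comparisons, two-sided tests). A second fit took the ATMG total as library size. SE is the absolute log2 fold change over the square root of F. The tests were run on simulated data first. Copies were found with blastn 2.17.0 in TAIR10.1. Replicates differed by more than counting noise (chi-square per degree of freedom 25.2 to 694, highest in DS). Members and lists were chosen with earlier results of these data known. Of S24 to S72, rises of all loci are given as a count. Levels are given for the highest locus of each list, for ATMG00020, ATMG00520 and ATMG01390, for the largest called changes of at least 10 CPM whose libraries do not overlap, and for loci named through a copy. ATMG00640 and ATMG00570 were singled out after their values were seen. Alternatives were other size factors, DESeq2 1.42.0, filters, subsets of libraries, a replicate block and summed copies. The main fit has no replicate block. Sequences of other copies are not reported here.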

Additional observations from a re-analysis of the deposited data

How the results depend on the processing

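Of 230 called changes of named loci, 2275 recomputed values comprised 2021 that kept direction and side of the threshold, 229 that kept direction but lost the call (147 of them with a library left out) and 25 that reversed (0 with a library left out). With copies summed in, 29 ATMG loci were called from DS to S24 and 20 in rrp4-2, and 17 values reversed. These were ATMG00210 (S24 to S72 -0.16, hen2-4 0.21), ATMG00220 (S72 to L6 -0.58), ATMG00290 (L6 to L26 0.23), ATMG00480 (DS to S24 0.46, S24 to S72 -0.21, S72 to L6 -0.53), ATMG00900 (S24 to S72 -0.031), ATMG00960 (S24 to S72 -0.26, S72 to L6 -0.37), ATMG00980 (S72 to L6 -0.13), ATMG01080 (S72 to L6 -0.16, hen2-4 0.18), ATMG01190 (S24 to S72 -0.34, S72 to L6 -0.39, hen2-4 0.28) and ATMG01320 (S72 to L6 -0.57). Most counts in these sums are those of the copies. ATMG01275 from L26 to L57 stood at 0.093 with DESeq2's size factors and at 0.078 with the DESeq2 Wald test. With ATMG00020, ATMG01380 and ATMG01390 left out of the ATMG total, 14 loci were called from L26 to L57, and reversals were ATMG00270 (S72 to L6 -0.037), ATMG00290 (S72 to L6 -0.044, L6 to L26 -0.20), ATMG00480 (L6 to L26 -0.029) and ATMG01275 (S72 to L6 -0.24, L6 to L26 -0.085). A fit of the 4 libraries compared called 24 from L6 to L26 and, relative to the ATMG total, 9 in rrp4-2, where no filter on low counts gave 2. The cause of these differences was not tested.

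The mean ATMG share without chloroplast and nuclear rRNA loci in the denominator was 0.0893% (DS), 0.290% (S24), 0.236% (S72), 0.2197% (L6), 0.152% (L26), 0.112% (L57), 0.155% (hen2-4) and 0.187% (rrp4-2). Without ATMG00020, ATMG01380 and ATMG01390 it was 0.0157%, 0.0497%, 0.04498%, 0.0601%, 0.0542%, 0.0183%, 0.02299% and 0.0274% in the same order, with L6 highest. With the nuclear loci in mitochondrial-like sequence added it was 0.612%, 1.66%, 1.33%, 1.49%, 1.37%, 0.627%, 0.739% and 0.853%.

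With 1 library left out, calls ranged from 12 to 19 (DS to S24), 7 to 16 (S24 to S72), 27 to 32 (S72 to L6), 8 to 10 (L6 to L26), 26 to 30 (L26 to L57), 4 to 5 (hen2-4) and 6 to 8 (rrp4-2). Relative to the ATMG total they ranged from 23 to 28, 9 to 13, 38 to 42, 8 to 12, 17 to 18, 9 to 14 and 1 to 4 in that order. Such a fit lends the spread of the other groups to the lone library.

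Replicate numbers showed no consistent pairing of the samples (correlations of deviations from -0.33 to 0.23 over 28 pairs of groups). With a single difference between replicates per group, these values cannot exclude a batch shared by some groups. A replicate block gave 18, 14, 36, 11, 31, 10 and 9 calls on the library scale, and 28, 13, 48, 15, 23, 21 and 5 relative to the ATMG total. Depth limits the 23 loci with under 100 counts in every library, whose missing calls show no absence of change.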
